A study of Mus musculus with 4 samples.

Results

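Glycolysis and hypoxia response genes were described in RNA sequencing of stromal vascular cells from inguinal white fat, the non-adipocyte cells released when the tissue is digested. The set is a named list of 36 symbols: glucose transporters, the enzymes that turn glucose into lactate, kinases of the pyruvate dehydrogenase complex, subunits and hydroxylases of the hypoxia-inducible factor (HIF), and HIF target genes. Of these, 35 symbols were in the deposited table, on 36 of its 55536 rows, because Aldoa is the symbol of 2 rows. Ero1a is listed there only under its older symbol Ero1l, a synonym in the RefSeq gene table, and was left out of all counts. All 36 rows had at least 1 CPM (a gene's reads scaled to the size of the library by the authors) in at least 2 libraries and were tested.

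There were 4 libraries from wild-type male mice at postnatal day 21, each made from the pooled cells of 3 mice. They cover 2 parental groups, which the labels call LnF1 and ObF1 in a series on obesity of the parents, and 2 drinks, water and 1,3BD. Each pairing of parents and drink has 1 library and no replicate. Where 4 values are given in a row, they stand for LnF1 on water, LnF1 on 1,3BD, ObF1 on water and ObF1 on 1,3BD. The labels do not say who drank 1,3BD or for how long. Differences were therefore tested in 1 additive model of drink and parents, in which the error is how far a difference failed to repeat at the other level of the second factor, pooled with that of genes of similar level. A p-value from this model measures neither the spread between animals nor that between repeated libraries of 1 group.

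Glycolysis splits glucose into pyruvate and yields ATP without oxygen. Glucose enters through transporters, is trapped by hexokinase, committed by phosphofructokinase, split by aldolase, and carried through the payoff enzymes to pyruvate, which lactate dehydrogenase reduces to lactate. When oxygen is short, HIF prolyl hydroxylases stop marking the HIF alpha subunits for destruction, and HIF raises transcription of most of these genes together with genes of vessel growth, matrix hydroxylation and mitophagy. In fat, stromal progenitors and fibroblasts are known to be rich in glycolytic transcripts, and HIF is known for its role in vessel growth and fibrosis of expanding fat tissue.

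Promoters are shown for 6 members, because the core letters of the HIF response element can be searched in them and because these genes did not all move the same way with 1,3BD: Ldha, Eno1, Adm and Egln3 were called lower, Vegfa higher and Bnip3 neither. Each is the 300 bases around the outermost RefSeq start of the gene in GRCm38.p6, from 250 before it to 50 after it, written 5′ to 3′ on the gene's strand. Capitals mark ACGTG or GCGTG on either strand. A CACGTG holds ACGTG on both strands and counts as 2 matches. The windows are chr7:46845554-46845853 on the plus strand for Ldha, chr4:150236458-150236757 on the plus strand for Eno1, and chr7:110627407-110627706 on the plus strand for Adm. They are chr12:54203825-54204124 on the minus strand for Egln3, chr17:46032328-46032627 on the minus strand for Vegfa, and chr7:138909457-138909756 on the minus strand for Bnip3.
Ldha: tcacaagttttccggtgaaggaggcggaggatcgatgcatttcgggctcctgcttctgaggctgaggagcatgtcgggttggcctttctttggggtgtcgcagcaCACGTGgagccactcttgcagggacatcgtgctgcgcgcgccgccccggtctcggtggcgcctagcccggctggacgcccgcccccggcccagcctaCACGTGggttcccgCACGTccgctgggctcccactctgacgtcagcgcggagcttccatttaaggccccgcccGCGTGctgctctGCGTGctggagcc
Eno1: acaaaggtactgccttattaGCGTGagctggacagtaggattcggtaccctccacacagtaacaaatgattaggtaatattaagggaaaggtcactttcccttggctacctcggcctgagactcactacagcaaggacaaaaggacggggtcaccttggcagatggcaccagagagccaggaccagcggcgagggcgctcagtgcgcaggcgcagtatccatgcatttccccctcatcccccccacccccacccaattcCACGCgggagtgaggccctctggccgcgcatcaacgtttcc
Adm: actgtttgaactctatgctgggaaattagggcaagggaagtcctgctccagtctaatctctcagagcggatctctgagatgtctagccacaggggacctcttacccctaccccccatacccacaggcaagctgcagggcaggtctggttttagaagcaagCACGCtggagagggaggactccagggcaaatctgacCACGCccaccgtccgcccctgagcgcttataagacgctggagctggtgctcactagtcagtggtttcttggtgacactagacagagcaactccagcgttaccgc
Egln3: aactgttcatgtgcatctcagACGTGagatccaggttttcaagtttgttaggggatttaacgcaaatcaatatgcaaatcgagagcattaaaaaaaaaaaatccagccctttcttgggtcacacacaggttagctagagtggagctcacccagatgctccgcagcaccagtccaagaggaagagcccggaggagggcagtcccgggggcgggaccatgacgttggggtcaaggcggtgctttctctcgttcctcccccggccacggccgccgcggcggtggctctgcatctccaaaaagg
Vegfa: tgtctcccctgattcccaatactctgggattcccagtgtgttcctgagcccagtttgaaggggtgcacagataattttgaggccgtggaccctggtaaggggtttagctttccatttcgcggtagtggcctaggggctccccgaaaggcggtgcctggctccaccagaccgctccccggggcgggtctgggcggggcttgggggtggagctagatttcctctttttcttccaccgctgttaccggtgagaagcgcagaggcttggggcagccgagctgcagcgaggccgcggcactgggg
Bnip3: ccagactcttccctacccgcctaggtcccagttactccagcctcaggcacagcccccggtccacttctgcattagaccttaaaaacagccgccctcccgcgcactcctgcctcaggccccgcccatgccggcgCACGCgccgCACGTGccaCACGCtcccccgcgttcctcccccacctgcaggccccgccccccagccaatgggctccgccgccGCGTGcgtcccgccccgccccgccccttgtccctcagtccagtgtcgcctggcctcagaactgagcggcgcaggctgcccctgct
Ldha held 7 matches, Bnip3 5, Eno1 and Adm 2 each, Egln3 1 and Vegfa 0. In Ldha, a pair of CACGTG copies start 145 and 48 bases before the start site, and Bnip3 has 1 CACGTG that starts 108 bases before it. At least 1 match was present in 25 of the 32 members with a promoter in the reference table (78.1%), against 43.8% of all 27025 promoters of the same length. Those 27025 were neither limited to genes tested here nor matched to the members in base content, so the 2 shares are not a test of enrichment. Among members called lower with 1,3BD the count was 9 of 12, and among members not called it was 16 of 19. A match is only a run of letters, and these windows do not reach elements that lie farther away.

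The libraries held between 24586827 and 26000090 reads, so 1 read was worth 0.0359 to 0.0434 CPM, and the least abundant library value among the 36 rows still rested on 16 reads. Of the 7 fibroblast and progenitor markers, Col1a1, Pdgfrb, Pdgfra and Dcn were abundant, with Pdgfra between 236 and 412 CPM, while Lum, Pi16 and Dpp4 stayed at or below 6.54, 2.08 and 0.869 CPM. The 8 white blood cell markers summed to 18.8 and 14.5 CPM with water and 4.34 and 8.47 CPM with 1,3BD. Most of this was Lyz2 and Csf1r, which were lower in both 1,3BD libraries than in both water libraries. Cd68 (1.32 and 0.956 CPM with water, 1.47 and 2.14 with 1,3BD) and Cd79a, at or below 0.287 CPM, were higher in both. Ptprc stayed at or below 0.150 CPM, and Cd3e and Cd79b had 0 reads. Of the 4 adipocyte markers, Adipoq and Lep had 0 reads and Cidec at most 1, while Plin1 was higher with 1,3BD (5.09 and 1.84 CPM) than with water (0.0849 and 0.0434 CPM). The 4 skeletal muscle markers summed to 87.4 and 62.2 CPM with water and 2.98 and 3.49 CPM with 1,3BD, with Acta1 as the source of the difference and Myh4 at 0 reads, and the red blood cell and epithelial sums stayed at or below 0.645 CPM. Smooth muscle and mural markers moved with the drink: all 4 on the list were lower in both 1,3BD libraries, and their sum was 7839 and 8325 CPM with water against 119 and 177 CPM with 1,3BD, nearly all of it Acta2. The fibroblast and progenitor markers summed to 17640 and 19779.5 CPM with water and to 4815 and 4018 CPM with 1,3BD, of which most was Col1a1, and 4 of them were lower in both 1,3BD libraries and 1 higher. The summed endothelial markers, with Cldn5 at 1 read or none, were 7.17 and 18.6 CPM with water against 1.18 and 2.70 CPM with 1,3BD, and higher in ObF1 than in LnF1 within each drink. Mitochondrial reads rose from 1.13% and 1.296% of each library with water to 2.78% and 5.80% with 1,3BD. The part of these shifts in the values below was not tested. In RNA from pooled stromal vascular cells, fewer cells of a type and less RNA per cell cannot be told apart.

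The first comparison asked how the genes differ between 1,3BD and water. Most enzymes from phosphofructokinase to lactate dehydrogenase were lower with 1,3BD in both parental groups, led by Eno1 and Ldha, and so were the HIF targets Adm and Ndrg1. Vegfa, the main vessel growth factor, and the HIF subunit gene Epas1 were higher. Of 36 members, 13 were called lower and 2 higher by limma at an adjusted p under 0.05, while 21 were not called. Among all 12838 genes tested, 24.8% were called lower and 19.2% higher, 44.0% in all, beside 41.7% of the members. With reads per library total in place of the authors' scaling, the split was 11 lower and 4 higher. That change moves the median of all genes up by 0.25 on the log2 scale. The shares of all genes called with library totals are not given here, so this split has no background beside it. With the authors' scaling, the median member difference was -0.44 on the log2 scale (range -1.996 to 0.96), beside -0.06 for all genes. The median was -0.48 in LnF1 and -0.58 in ObF1, beside -0.06 for all genes in each, and 26 of 36 members were below 0 in each.

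**Figure D1:**
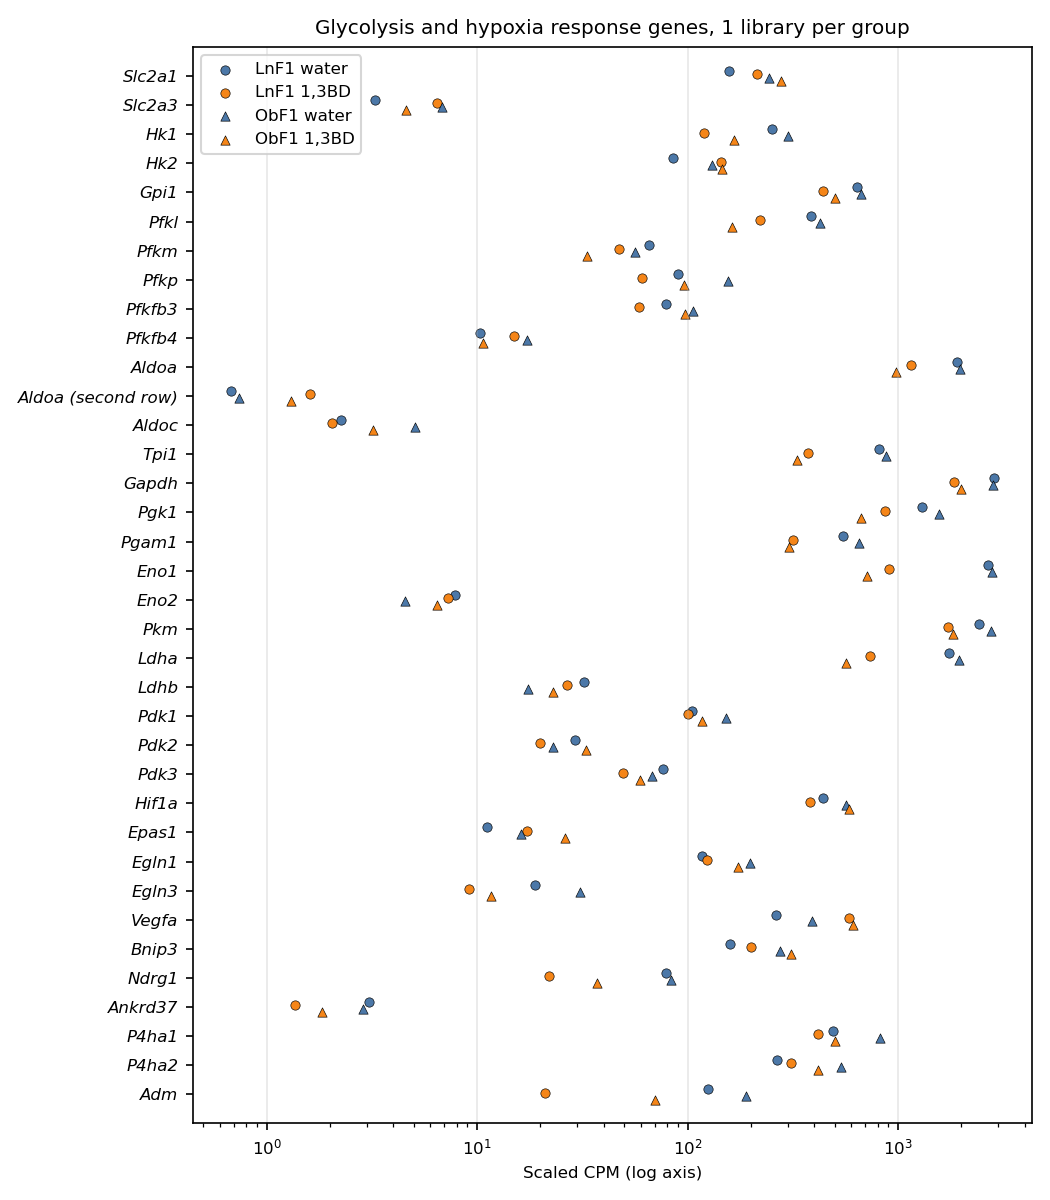
Scaled CPM (log axis) of each of the 36 rows in the 4 libraries; circles are LnF1, triangles ObF1, blue water and orange 1,3BD, and each point is 1 library. For Eno1 both orange points (908 and 715 CPM) lie left of both blue points (2675 and 2786 CPM), while for Vegfa they lie to the right.

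Of the glucose transporters, Slc2a1 encodes GLUT1, the general transporter of proliferating and stromal cells. In LnF1 it stood at 158 CPM with water and 214 with 1,3BD, and in ObF1 at 244 and 277. The 1,3BD library was the higher of each pair, but the LnF1 1,3BD value lay below that of ObF1 water, and the log2 difference of 0.31 (SE 0.20) was not called (limma adjusted p = 0.216). It was called with library totals as the scale. Slc2a3, the GLUT3 gene best known from neurons, was far below Slc2a1 in every library, with at most 1.44% of the pair per kilobase of exon (3.27, 6.45, 6.78 and 4.57 CPM) and was not called (log2 difference 0.20, SE 0.39).

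The hexokinase genes moved apart. Hk1, the housekeeping hexokinase (chromosome 10, 62268855 to 62379908, minus strand, GRCm38), went from 251 to 120.2 CPM in LnF1 and 299 to 167 in ObF1. Both 1,3BD libraries lay below both water libraries, a fall to 0.517 of the water level (log2 difference -0.95, SE 0.19, limma adjusted p = 0.0026). Hk2, the insulin- and hypoxia-inducible hexokinase, stood at 85.4, 145, 131 and 146 CPM. Both 1,3BD libraries were above both water libraries, but the ObF1 pair was close, and the log2 difference of 0.46 (SE 0.21) was not called (limma adjusted p = 0.0970, called with library totals). Per kilobase of exon, Hk2 made up 32.7% and 38.5% of the hexokinase pair with water in LnF1 and ObF1. With 1,3BD it made up 63.2% and 55.6%. On that scale the more abundant gene of the pair was Hk1 with water and Hk2 with 1,3BD. Without division by length, Hk2 was above Hk1 in LnF1 1,3BD (145 against 120.2 CPM). In ObF1 1,3BD it was below Hk1 (146 against 167 CPM).

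Gpi1, glucose phosphate isomerase, was lower in both 1,3BD libraries (440.3 and 503 CPM) than in both water libraries (635 and 666 CPM), at a log2 difference of -0.47 (SE 0.21) that was not called (limma adjusted p = 0.0877). All 3 phosphofructokinase subunit genes fell. Pfkl, the liver-type subunit and the most abundant of them per kilobase, stood at 388, 221, 425 and 163 CPM (log2 difference -1.10, SE 0.21, limma adjusted p = 0.00191). For Pfkl the 2 drinks did not overlap. Pfkm, the muscle-type subunit, stood at 65.7, 47.3, 56.0 and 33.4 CPM (log2 difference -0.61, SE 0.21, limma adjusted p = 0.0346). Its call ended in DESeq2, with library totals and without parents in the model. Pfkp, the platelet-type subunit, stood at 90.3, 60.6, 156 and 95.8 CPM (log2 difference -0.64, SE 0.19, limma adjusted p = 0.0198). The Pfkp libraries overlapped, since ObF1 1,3BD lay above LnF1 water, and its call also ended with library totals and without parents in the model. The genes of the bifunctional enzymes that set fructose 2,6-bisphosphate, the activator of phosphofructokinase, were not called. Pfkfb3 stood at 79.3, 59.1, 106 and 97.0 CPM, and Pfkfb4 at 10.4, 15.0, 17.3 and 10.7 CPM.

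In the lower part of the pathway, 5 of 10 rows were called lower and none higher, where 24.8% and 19.2% of all genes were. Below 0 were 9 of the 10 rows in LnF1 and 8 in ObF1. Eno1, the enolase of most tissues (chromosome 4, 150236721 to 150248879, plus strand), stood at 2675 CPM with water and 908 with 1,3BD in LnF1, and at 2786 and 715 CPM in ObF1. The water libraries lay within 1.04-fold of each other, and 1,3BD was 3.39-fold lower in the fit (log2 difference -1.76, SE 0.23, limma adjusted p = 0.000175), the largest fall among the member enzymes. Tpi1, triosephosphate isomerase (chromosome 6, 124810586 to 124814296, minus strand), fell in LnF1 from 810.2 to 374 CPM and in ObF1 from 874 to 333 CPM (log2 difference -1.25, SE 0.21, limma adjusted p = 0.000801). Neither gene's drinks overlapped.

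Pgam1, phosphoglycerate mutase, stood at 547, 318, 651 and 302 CPM (log2 difference -0.94, SE 0.21, limma adjusted p = 0.00389). Pgk1, phosphoglycerate kinase (chromosome X, 106187100 to 106203699, plus strand), stood at 1296, 866, 1567 and 664 CPM (log2 difference -0.91, SE 0.24, limma adjusted p = 0.0102). Aldoa, the main aldolase, stood at 1906, 1152, 1968 and 982 CPM (log2 difference -0.87, SE 0.23, limma adjusted p = 0.0104). For all 3 genes, the drop was the larger in ObF1, a difference that was not tested.

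The other abundant enzymes of this stretch were lower in both 1,3BD libraries without being called. Gapdh, often used as a reference gene, stood at 2854 and 2842 CPM with water in LnF1 and ObF1 and at 1851 and 1982 CPM with 1,3BD (log2 difference -0.57, SE 0.24, limma adjusted p = 0.0678). Pkm, pyruvate kinase, stood at 2429.8 and 2771 CPM with water and at 1727 and 1823 CPM with 1,3BD (log2 difference -0.55, SE 0.23, limma adjusted p = 0.0766). Both genes were called lower when no filter on low values was used. Aldoc and Eno2, the aldolase and enolase known from brain, were at or below 8 CPM and not called. The second Aldoa row, an adjoining gene model (ENSMUSG00000114515) at 0.679 to 1.61 CPM, was higher in both 1,3BD libraries and not called. Processed copies of these enzymes could take reads from them: of 20 such rows found by name, 10 held reads. These were Eno1b, the highest at 1.35 CPM, Pgk1-rs7, Pgam1-ps2, Ldha-ps2, Gapdh-ps15, Pgk1-ps1, Pgam1-ps1, Aldoart2, Ldha-ps and Tpi-rs11. Only names built on the symbols of Aldoa, Tpi1, Gapdh, Pgk1, Pgam1, Eno1 and Ldha were searched. Copies under other names, and those of Pkm, were not counted.

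**Figure D2:**
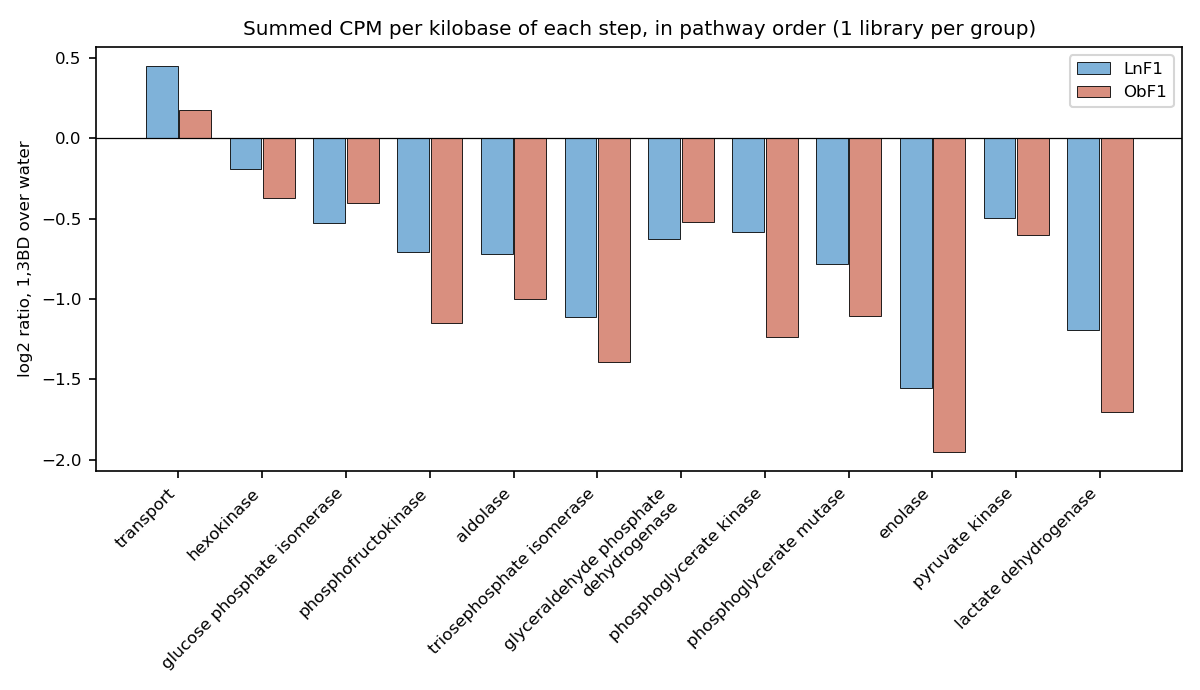
Bars give the log2 ratio of 1,3BD over water of the summed CPM per kilobase of exon of each step's members, in pathway order, for LnF1 (blue) and ObF1 (red), 1 library per group. Transport is the one step above 0 in both groups, and enolase (-1.55 and -1.95) and lactate dehydrogenase (-1.19 and -1.70) reach lowest.

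Summed over members and divided by exon length, every step from hexokinase to lactate dehydrogenase was lower with 1,3BD in both parental groups. Enolase stood at 34.1% of its water level in LnF1 and 25.9% in ObF1, and lactate dehydrogenase at 43.7% and 30.8%. Hexokinase kept 87.5% and 77.3%, and pyruvate kinase 71.1% and 65.8%. The glucose transporters stood at 136% and 113% of their water level. Together the 18 rows of glycolytic enzymes and lactate dehydrogenases took 1.503% of reads with water and 1.02% with 1,3BD in LnF1, and 1.52% and 0.892% in ObF1. These sums carry no test.

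At the end of the pathway, Ldha, which favours the making of lactate (chromosome 7, 46841475 to 46855627, plus strand), stood in LnF1 at 1749 CPM with water and 738 with 1,3BD, and in ObF1 at 1959 and 566. The drinks did not overlap, and Ldha fell 2.86-fold (log2 difference -1.52, SE 0.23, limma adjusted p = 0.000475). Ldhb, which favours the use of lactate, stood at 32.1, 26.7, 17.4 and 22.9 CPM and was not called (log2 difference 0.07, SE 0.24). Its share of the pair per kilobase was 3.72% and 1.84% with water in LnF1 and ObF1 and 7.09% and 7.88% with 1,3BD. The 3 pyruvate dehydrogenase kinases among the members, which restrain the pyruvate dehydrogenase complex, were not called. A further kinase gene, Pdk4, is outside the member list and is described below. Pdk1, a HIF target, stood at 105, 101, 153 and 117 CPM, Pdk2 at 29.3, 19.8, 23.1 and 32.9 CPM, and Pdk3 at 76.1, 49.5, 68.0 and 59.6 CPM. Only Pdk3 was lower in both 1,3BD libraries than in both water libraries among these 3.

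Among HIF genes, Hif1a, the general alpha subunit, which is controlled mostly at the protein level, stood at 439, 383, 566 and 584 CPM. It was not called for the drink (log2 difference -0.08, SE 0.21). Epas1, the HIF alpha subunit known from endothelium, rose in LnF1 from 11.1 to 17.4 CPM and in ObF1 from 16.2 to 26.2 CPM (log2 difference 0.67, SE 0.24, limma adjusted p = 0.0391). All Epas1 values with 1,3BD lay above those with water, but the call ended in DESeq2 and without parents in the model. Epas1 held 2.60% to 4.56% of the alpha subunit pair per kilobase in every library. Egln1, the main HIF prolyl hydroxylase, stood at 117, 123, 197 and 174 CPM and was not called for the drink. Egln3, a hydroxylase that is itself a HIF target (chromosome 12, 54178981 to 54203860, minus strand), went in LnF1 from 18.8 to 9.14 CPM and in ObF1 from 30.9 to 11.7 CPM (log2 difference -1.22, SE 0.25, limma adjusted p = 0.00241). Its share of the hydroxylase pair per kilobase was 17.8% and 17.4% with water and 9.10% and 8.32% with 1,3BD.

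The HIF targets went in both directions. Adm, which encodes the vessel-dilating peptide adrenomedullin (chromosome 7, 110627661 to 110629820, plus strand), stood at 125 CPM with water and 21.05 with 1,3BD in LnF1, and at 189.9 and 70.4 CPM in ObF1. The drinks did not overlap, and its fall of 3.99-fold was the largest of any member (log2 difference -1.996, SE 0.27, limma adjusted p = 0.000378). Ndrg1, a stress-responsive gene (chromosome 15, 66929318 to 66969640, minus strand), stood at 78.9, 21.9, 83.8 and 37.3 CPM (log2 difference -1.50, SE 0.23, limma adjusted p = 0.000457). Ankrd37, an ankyrin repeat gene, was at 3.06, 1.36, 2.87 and 1.84 CPM, lower in both 1,3BD libraries and not called (limma adjusted p = 0.0939).

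Vegfa (chromosome 17, 46016993 to 46032369, minus strand) stood at 264, 585, 389.9 and 612 CPM. Both 1,3BD values lay above both water values, and Vegfa rose 1.86-fold (log2 difference 0.90, SE 0.21, limma adjusted p = 0.0063). Bnip3, a mitophagy receptor gene, stood at 159, 199, 274 and 309 CPM, higher with 1,3BD in each pair but overlapping between the drinks, and was not called (log2 difference 0.25, SE 0.19). P4ha1 and P4ha2, the collagen prolyl hydroxylase subunits, were not called for the drink (log2 differences of -0.47 and -0.07). Under its older symbol, Ero1l, the oxidase of protein folding that the list names Ero1a, stood at 263, 984, 424 and 1498 CPM, higher in both 1,3BD libraries (log2 difference 1.86, SE 0.21, limma adjusted p = 5.54e-05).

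**Figure D3:**
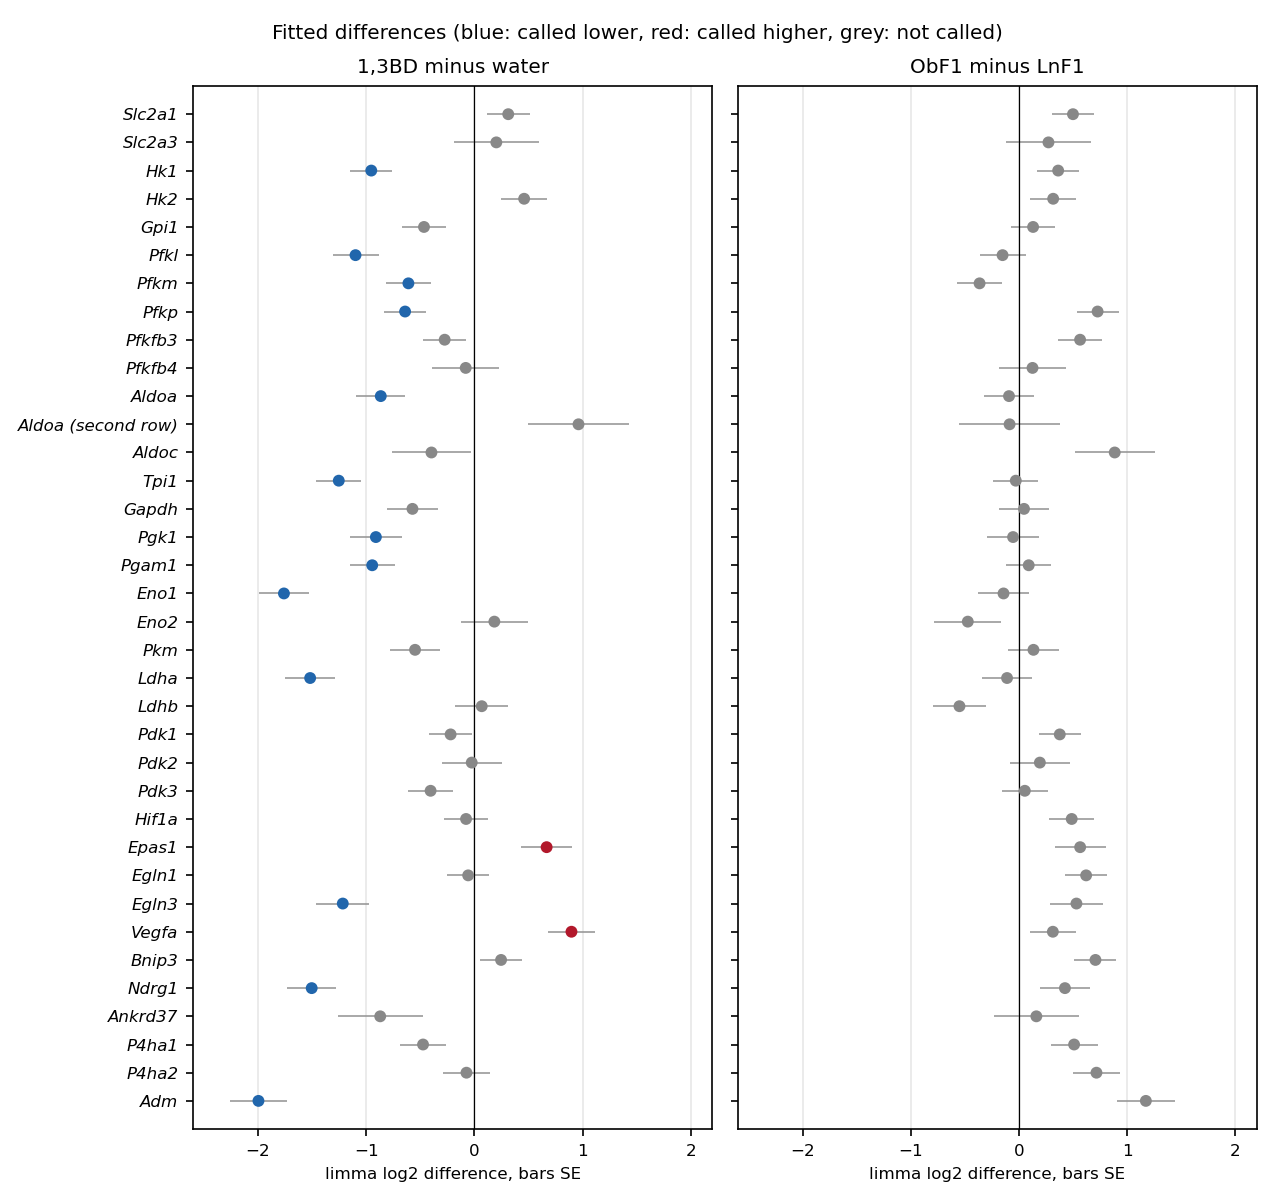
Log2 differences fitted by limma for each row, with the standard error as bars: 1,3BD minus water on the left and ObF1 minus LnF1 on the right. Blue points were called lower, red higher and grey not called; 13 are blue and 2 red on the left, and none is coloured on the right, where Adm (1.17) lies farthest from 0.

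By the order of the libraries alone, 17 of 36 members were lower in both 1,3BD libraries than in both water libraries, where 38.2% of all genes were, and 4 were higher in both, where 33.8% were. By size, 33 members had a mean of at least 5 CPM. In LnF1, 7 of them were at least 2-fold lower with 1,3BD and 1 at least 2-fold higher, where 14.2% and 8.86% of all genes were. In ObF1, 10 were at least 2-fold lower and 0 higher, where 17.4% and 10.7% were. Ndrg1, Tpi1, Adm, Egln3, Ldha and Eno1 were at least 2-fold lower in both groups. These counts carry no test.

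**Figure D4:**
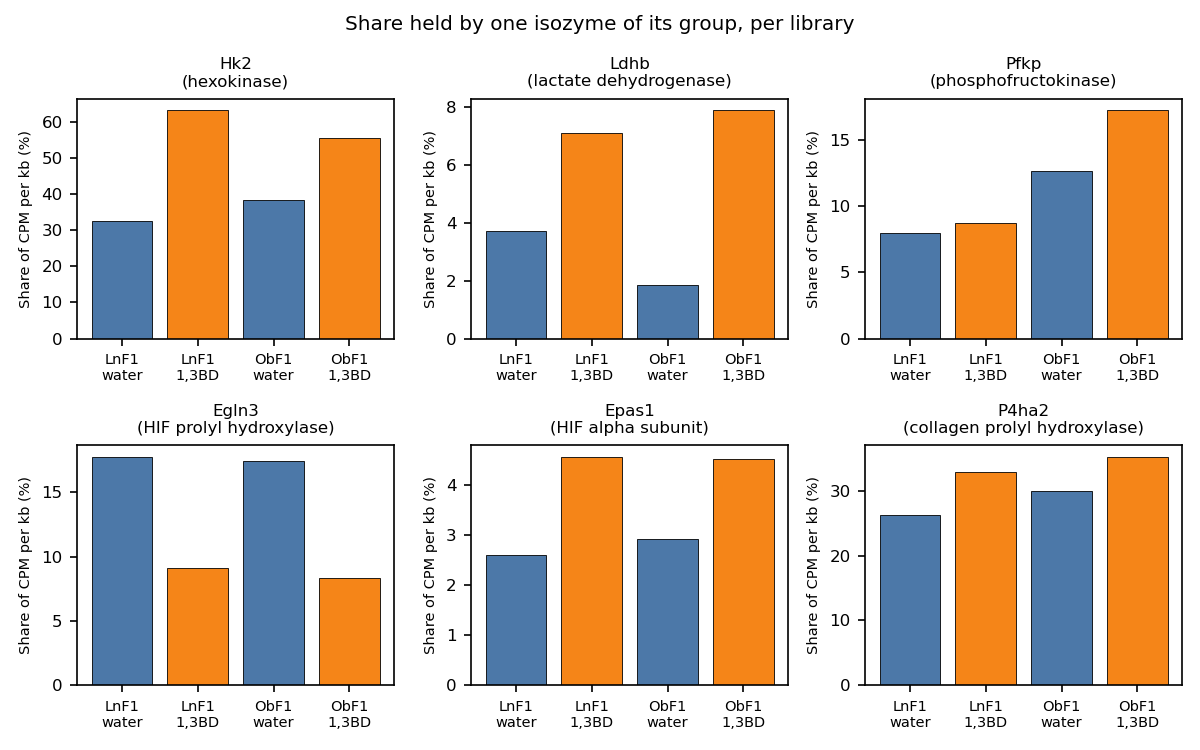
Share of CPM per kilobase of exon that 1 isozyme held within its group of members, in percent, for each library (blue water, orange 1,3BD). Hk2 goes from 32.7% and 38.5% with water to 63.2% and 55.6% with 1,3BD, and Egln3 from 17.8% and 17.4% to 9.10% and 8.32%.

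The second comparison set ObF1 against LnF1, the question of the submitted design. No member passed: 0 of 36 were called in either direction by limma, where 0.195% of all genes were called higher in ObF1 and 0.101% lower, 0.296% in all. At an unadjusted p under 0.05, 12 of 36 members differed, 11 of them higher in ObF1, where 10.8% of all genes differed and 5.36% were higher. DESeq2 called 1 member higher, Adm, and edgeR 0. The median member difference was 0.23 on the log2 scale, beside 0.01 for all genes, and lay at 0.26 with water and 0.20 with 1,3BD.

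Adm and Pfkp had the lowest p-values. Adm was 1.52-fold higher in ObF1 with water and 3.34-fold higher with 1,3BD (log2 difference 1.17, SE 0.27, limma adjusted p = 0.140). LnF1 1,3BD held the lowest of the 4 Adm values. Pfkp was 1.73-fold higher with water and 1.58-fold higher with 1,3BD (log2 difference 0.73, SE 0.19, limma adjusted p = 0.188), and both ObF1 libraries lay above both LnF1 libraries.

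Both ObF1 libraries were above both LnF1 libraries for 10 of 36 members, where 8.44% of all genes were, and below for 2, where 8.02% were. The 10 were Slc2a1, Pfkp, Pfkfb3, Aldoc, Pdk1, Hif1a, Egln1, Bnip3, P4ha1 and P4ha2, and the 2 were Eno2 and Ldhb. None of these 12 was called. P4ha1 stood at 491, 416, 822 and 503 CPM and P4ha2 at 267, 311, 538 and 417 CPM. The log2 difference was 0.72 (SE 0.22) for P4ha2, 0.71 (SE 0.19) for Bnip3, 0.62 (SE 0.19) for Egln1 and 0.49 (SE 0.21) for Hif1a. Egln3, Pdk1 and many of the glycolysis genes are also raised by HIF but were grouped here under other roles. For the 7 members grouped only as HIF targets (Vegfa, Bnip3, Ndrg1, Ankrd37, P4ha1, P4ha2 and Adm) the median was 0.51. For the 10 rows of lower glycolysis it was -0.04. These 2 groups of members were not compared by a test, and they do not separate HIF targets from other genes.

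By size, Slc2a3 and P4ha2 were at least 2-fold higher in ObF1 with water and Adm with 1,3BD, among 33 members, and 0 were 2-fold lower in either drink. Among all genes 1.81% with water and 1.89% with 1,3BD were 2-fold higher, and 1.40% and 3.02% 2-fold lower. Per kilobase, Pfkp held 7.97% and 8.74% of the phosphofructokinase group in LnF1 with water and 1,3BD, and 12.7% and 17.2% in ObF1.

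Other genes of the 2 pathways were taken from fixed lists. Of 42 further genes of glucose use, 29 were tested, and 8 were called higher and 6 lower with 1,3BD. Of 45 further hypoxia genes, 43 were tested, and 8 were called higher and 8 lower. Among all genes tested, 19.2% were called higher and 24.8% lower. None of either list was called for the parents, where 0.296% of all genes were. The largest rises were in Slc16a1, the lactate and ketone transporter (log2 difference 2.63, SE 0.19, at 50.5, 334, 42.8 and 249.9 CPM), in Pdk4, the fasting-induced pyruvate dehydrogenase kinase (2.53, SE 0.23, at 9.64, 48.2, 12.7 and 86.3 CPM), and in the lipoprotein receptor gene Vldlr (1.92, SE 0.20, at 80.7, 347, 134 and 446 CPM). Among the largest falls were those in Tgfb3, a transforming growth factor beta gene (-3.22, SE 0.22, at 122, 15.8, 216 and 19.1 CPM), and in Arnt2, a partner of HIF alpha subunits (-2.27, SE 0.24, at 33.4, 6.78, 34.1 and 7.12 CPM). For these 5 genes the adjusted p by limma ran from 1.97e-06 (Tgfb3) to 3.79e-05 (Arnt2), and the drinks did not overlap. The median over the glucose list was 0.08 and over the hypoxia list -0.06, where the members had -0.44.

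The calls for the drink rest on few libraries. Without any 1 library, in a fit that must drop the parents, between 4 and 11 members stayed lower, with 4 without ObF1 water, 7 without LnF1 water, 9 without ObF1 1,3BD and 11 without LnF1 1,3BD. Tpi1, Eno1, Ldha and Ndrg1 were called lower in all 4 of these fits, and Vegfa was called higher without LnF1 1,3BD or ObF1 water but not without either other library.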

How the data were processed

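The table the authors deposited calls itself raw counts, per the file headers, but its values are a scaled signal: each is a whole number of steps of a size fixed per library (100% of values, within a relative tolerance of 1e-06). The deposited signal is CPM divided by a factor per library, and is called CPM here. For LnF1 the factors were 0.950 (water) and 1.13 (1,3BD), and for ObF1 0.885 and 1.05. The reads recovered were 24804006 and 24586827 for LnF1, and 26000090 and 25432747 for ObF1, so a count of 0 allows 0.108 to 0.130 CPM, for counting error only. The submitters' processing notes name mm10, edgeR and DESeq2 without roles. Which aligner, counter and strand setting made the table is not given in the sources used here; reads of overlapping genes may therefore be shared. Columns naming no drink were matched to water.

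limma 3.58.1 (R 4.3.3) was run on log2(CPM + 0.0796), a pseudocount worth 2 reads, as a robust fit with a trend, over the 12838 genes that reached 1 CPM in 2 or more libraries. Drink and parents entered as additive terms, with 1 residual degree of freedom, and p-values were Benjamini-Hochberg adjusted over all genes. Fold changes on this scale understate those of low genes. Alternatives were other pseudocounts, filters and scalings, edgeR 4.0.16 and DESeq2 1.42.0 on recovered reads, a model without the other factor, and leaving out each library. Exon lengths are unions of GENCODE M21 exons (GRCm38), which count rare exons fully. Matches to the HIF core letters were searched in RefSeq promoters.

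Members and lists were chosen with earlier results of these data known. All members are named. Full statistics are given for called members, for the pair with the lowest unadjusted p for the parents, and for the 3 largest rises and falls among other called pathway genes. One gene that this rule names is not reported here.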

Additional observations from a re-analysis of the deposited data

Results flagged for a closer look

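Opposite directions at the 2 levels of the second factor were looked for among the 36 rows, counting only differences of at least 0.25 on the log2 scale and beyond 2 counting errors at both levels. With 1 library per combination, none of these differences was tested.

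With 1,3BD, Slc2a3 was higher in LnF1 (0.96) and lower in ObF1 (-0.56), which differ by -1.52 on the log2 scale, and Pfkfb4 was higher in LnF1 (0.53) and lower in ObF1 (-0.69), which differ by -1.22. Ldhb was lower in LnF1 (-0.26) and higher in ObF1 (0.40), which differ by 0.66, and Pdk2 was lower in LnF1 (-0.56) and higher in ObF1 (0.51), which differ by 1.07.

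Set out by parents, ObF1 minus LnF1 for Slc2a3 was 1.03 with water and -0.49 with 1,3BD, for Pfkfb4 0.74 and -0.48, and for Pdk2 -0.34 and 0.73. These are the same contrasts of 4 libraries, with the same differences of -1.52, -1.22 and 1.07. Pgk1 was higher in ObF1 with water (0.27) and lower with 1,3BD (-0.38), which differ by -0.66. Slc2a3 rested on only 77 reads in LnF1 water.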

How the results depend on the processing

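For the drink, 13 members called lower and 2 higher stayed within 1.5-fold under other pseudocounts, filters, DESeq2 size factors, moderation without the robust option and edgeR. Members called higher were 4 with library totals, 1 without parents in the model and 1 in DESeq2. Leaving out 1 library gave 4 to 11 lower and 0 to 2 higher. Of the 15 called members, 12 kept their call in all 10 alternatives that keep 4 libraries, the exceptions being Pfkm, Pfkp and Epas1, and 4 kept it without any 1 library. For the parents, members called higher were 3 with no filter (Adm, Bnip3 and P4ha2) and 1 in DESeq2. Shares of all genes called under these alternatives are not given here.

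Other pathway genes called higher for the drink were 25 with library totals, against 16, and 6 to 12 without 1 library. Those called lower were 6 to 10 without 1 library, against 14. For the parents, 6 were higher and 1 lower with no filter, and 3 higher in DESeq2. The causes were not tested, beyond the fewer samples of the fits that leave out a library. Library totals turned the sign of 6 uncalled members for the drink (Pdk1, P4ha2, Hif1a, Pfkfb4, Egln1 and Pdk2) and of 3 for the parents (Pgam1, Pdk3 and Gapdh), as DESeq2 did for Pdk2 for the drink. No paired analysis was possible because each combination has 1 library and the labels number no replicates. Depth limits little here, apart from rows under 5 CPM.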

Other observations

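Genes of the pentose phosphate branch, which draws off glucose 6-phosphate to make NADPH and ribose, were chosen for this paragraph after their values were seen. The 2 NADPH-making dehydrogenases rose with 1,3BD. Of the other 5 listed enzymes of the branch, 1 rose, 2 fell and 2 were not called. Among all genes tested, 19.2% were called higher with 1,3BD and 24.8% lower. G6pdx stood at 109.6 and 108 CPM with water in LnF1 and ObF1 and at 199 and 288 CPM with 1,3BD (log2 difference 1.13, SE 0.21, limma adjusted p = 0.00136). Pgd stood at 239.8 and 217 CPM with water and at 511 and 569 CPM with 1,3BD (log2 difference 1.24, SE 0.20, limma adjusted p = 0.000694). Tkt, transketolase, stood at 320.3, 181, 285 and 160.3 CPM in the order of groups used above (log2 difference -0.83, SE 0.19, limma adjusted p = 0.00547), and Pgls, the lactonase between the dehydrogenases, stood at 57.9, 28.5, 34.4 and 15.7 CPM (log2 difference -1.07, SE 0.22, limma adjusted p = 0.00249). Rpe, ribulose phosphate epimerase, rose (39.6, 74.2, 46.1 and 70.3 CPM, log2 difference 0.76, SE 0.21, limma adjusted p = 0.0126). Taldo1, transaldolase, and Rpia, ribose phosphate isomerase, were not called (limma adjusted p = 0.104 and 0.765).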
